A study of Mus musculus with 2 samples.

Results

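Matricellular proteins are secreted glycoproteins that sit in the extracellular matrix and act mainly on cells rather than as structural fibres, and the small leucine-rich proteoglycans are matrix proteins that bind collagen and growth factors. The genes examined here were Sparc, Postn, Tnc, Thbs1, Thbs2 and Spp1 of the first kind and Dcn, Lum and Bgn of the second. Fn1, which encodes fibronectin, is of neither kind by this definition and was listed with them. All probe sets whose only gene symbol in the array annotation was 1 of these 10 were taken, whatever their values. That gave 19 probe sets for 9 of the 10 genes, out of 34945 probe sets with 1 symbol for 18193 genes. Spp1, which encodes osteopontin, had no probe set named by 1 symbol and was not analysed here.

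The series compared messenger RNA of whole liver from BALB/c nude mice, which are athymic, collected 3 days and 0 days after a 70% partial hepatectomy. There was 1 array for day 3, labelled active regeneration, and 1 for day 0, labelled control. Whether a sample was 1 animal or a pool, and the age and sex of the animals, are not given in the labels, and no sham-operated group was analysed here. No value has a replicate, so the days could not be tested against each other, and day, surgery and animal cannot be told apart.

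In liver most of the genes examined are used little by resting hepatocytes and more by stellate cells, portal fibroblasts, bile duct cells and macrophages. Fn1 differs, since hepatocytes make the soluble fibronectin of plasma. Several of these proteins are known from wound repair and fibrosis, where thrombospondin-1 activates latent TGF-beta and decorin binds it.

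At day 3 lumican stood out: the signal of Lum was 8.41-fold that at day 0. Thbs2 (4.19-fold), Sparc (3.44-fold) and Postn (2.51-fold) were also more than 2-fold higher, and Tnc was at least 2.19-fold higher. Bgn (1.84-fold), Dcn (1.26-fold) and Fn1 (1.08-fold) were under 2-fold on their main probe sets, and Thbs1 was at least 1.57-fold higher. No measured gene of the group was lower at day 3 on its main probe set.

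The values are probe set intensities on a linear scale. A signal under 68.3, the higher of the array medians, was treated as the floor, and where a gene lay under it on 1 array the text gives a bound in the form at least 2-fold. Each gene is represented by its brightest probe set by mean log2 signal, called the main probe set. Of the 9 genes, 7 exceeded the floor on both arrays and 2, Tnc and Thbs1, at day 3 only. A gene that passes through day 3 alone can only be higher there. Of these 7, 4 were at least 2-fold higher and 0 lower, where 11.7% of the 10722 genes above the floor on both arrays were higher and 5.76% lower. Of all 9, 5 were at least 2-fold higher and 0 lower, against 12.9% and 5.62% of 12634 genes. The median log2 ratio was 1.33 for the 7 and 1.13 for the 9, beside 0.09 and 0.08 for all genes on the same bases.

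Probe sets of 1 gene give the only measure of error on these arrays. Over 4380 genes whose brightest 2 probe sets both exceeded the floor on each array, this SD was 0.44 in log2 ratio for a probe set, or 0.62 for the difference between probe sets. This spread does not cover differences between animals. With no floor at all, 18 of the 19 probe sets had a higher signal at day 3, where 50.5% of all 34945 probe sets with 1 symbol did. Of those 34945, 17693 were above the floor on both arrays, and the direction of dim signals is noisy. The 19 probe sets are repeated readings of 9 genes on the same arrays, so they are not independent counts. Among the 11 that were above the floor on both arrays, 7 were at least 2-fold higher, against 10.3% of such probe sets on the array.

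**Figure D1:**
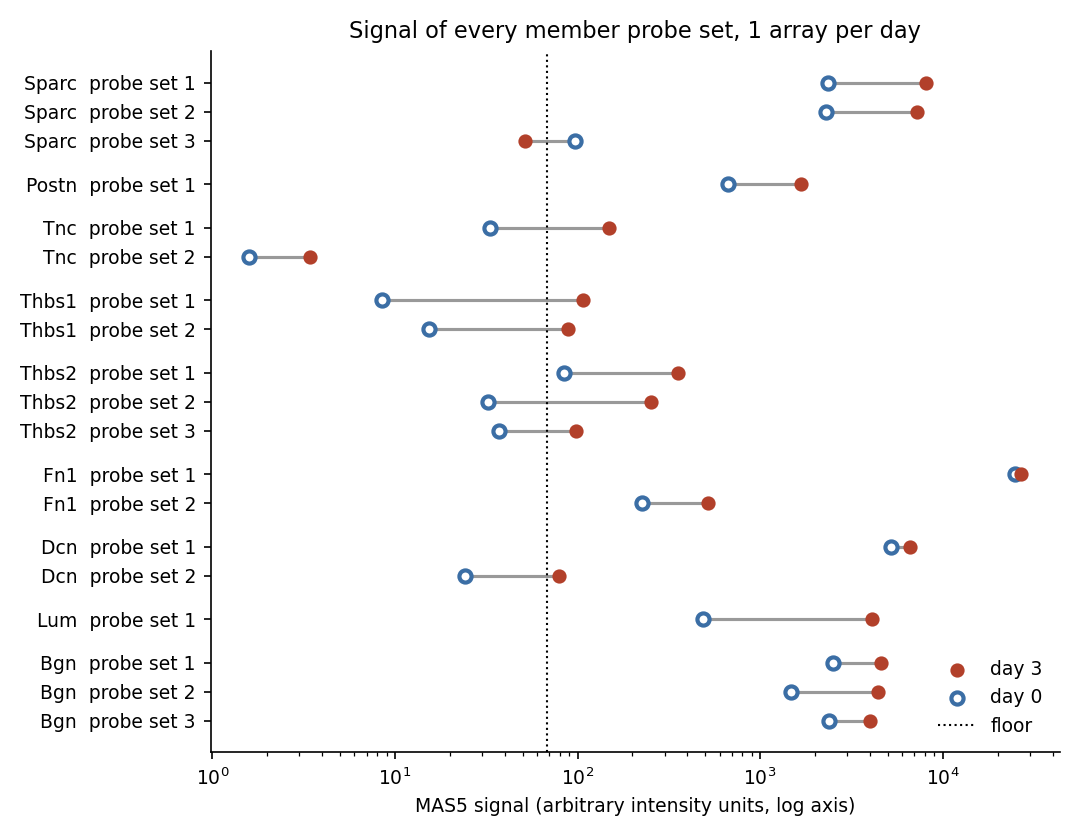
Signal of each of the 19 probe sets at day 3 (filled) and at day 0 (open), 1 array each, on a log axis in arbitrary intensity units, with probe sets of a gene numbered by their day 3 signal and the floor of 68.3 as a dotted line. Day 3 lies to the right of day 0 for 18 of the 19, the exception being the dimmest probe set of Sparc.

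The sequences around the annotated starts of these genes are shown as a description, and their part in the ratios was not tested. RefSeq windows of build GRCm38.p6, from 250 bases before a start to 50 after it, were present for 5 of the measured genes, Sparc, Thbs2, Bgn, Postn and Tnc. Postn and Tnc have 2 annotated starts, and the window of the more downstream one is printed. Each runs 5′ to 3′ on the strand of the gene, and capitals mark matches, on either strand, to TATAAA of the TATA box, CCAAT of the box of that name, GGGCGG of the GC box, TGANTCA of AP-1 sites, GGAATG of TEAD sites or CAGAC of SMAD sites.
Sparc (chr11:55420031-55420330, minus strand): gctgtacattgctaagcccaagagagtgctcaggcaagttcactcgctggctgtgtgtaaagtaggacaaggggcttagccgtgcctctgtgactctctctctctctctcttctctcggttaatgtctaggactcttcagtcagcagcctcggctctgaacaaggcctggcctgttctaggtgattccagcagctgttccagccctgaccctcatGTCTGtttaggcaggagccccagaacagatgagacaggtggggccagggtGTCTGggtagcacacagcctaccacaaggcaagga
Thbs2 (chr17:14694213-14694512, minus strand): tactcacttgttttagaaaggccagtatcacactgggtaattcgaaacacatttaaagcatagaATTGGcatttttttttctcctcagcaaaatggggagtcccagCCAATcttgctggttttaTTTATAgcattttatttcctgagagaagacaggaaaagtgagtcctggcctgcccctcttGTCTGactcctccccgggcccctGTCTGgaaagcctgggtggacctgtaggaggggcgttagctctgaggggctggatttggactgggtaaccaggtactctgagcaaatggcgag
Bgn (chrX:73483351-73483650, plus strand): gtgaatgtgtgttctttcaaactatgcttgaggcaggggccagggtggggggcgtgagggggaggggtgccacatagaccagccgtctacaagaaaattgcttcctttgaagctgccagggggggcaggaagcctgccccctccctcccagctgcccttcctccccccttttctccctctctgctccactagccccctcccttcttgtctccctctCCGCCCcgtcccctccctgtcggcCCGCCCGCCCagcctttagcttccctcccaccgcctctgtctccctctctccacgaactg
Postn (chr3:54360857-54361156, plus strand): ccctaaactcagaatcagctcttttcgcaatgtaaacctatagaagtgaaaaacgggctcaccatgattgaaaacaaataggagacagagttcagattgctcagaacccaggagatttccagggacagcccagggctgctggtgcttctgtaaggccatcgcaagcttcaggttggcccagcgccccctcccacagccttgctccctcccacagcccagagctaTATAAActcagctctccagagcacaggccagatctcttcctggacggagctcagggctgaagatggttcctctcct
Tnc (chr4:64046887-64047186, minus strand): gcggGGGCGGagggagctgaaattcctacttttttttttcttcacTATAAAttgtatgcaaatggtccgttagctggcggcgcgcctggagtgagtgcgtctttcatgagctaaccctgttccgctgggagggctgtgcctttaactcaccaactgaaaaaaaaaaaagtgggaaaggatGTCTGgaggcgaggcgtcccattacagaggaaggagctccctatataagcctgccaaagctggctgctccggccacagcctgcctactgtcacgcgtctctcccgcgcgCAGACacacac
The printed windows differ in make-up. That of Bgn holds 3 matches to GGGCGG, of which the last 2 overlap, and 63.7% G and C, against a median of 52.7% over 32851 windows. That of Postn has TATAAA starting 26 bases before the annotated start and no match to the other motifs. The upstream window of Postn, not printed, holds 1 match to CCAAT, 1 to CAGAC and 0 to TATAAA. Thbs2 has 1 match to TATAAA, 2 to CCAAT and 2 to CAGAC, Sparc has 2 to CAGAC and no other, and Tnc has 1 to TATAAA, 1 to GGGCGG and 2 to CAGAC. No window printed here holds TGANTCA or GGAATG, nor do the upstream windows of Postn and Tnc. Of all windows, 13.6% hold TATAAA, 37.4% CCAAT, 35.7% GGGCGG, 7.81% TGANTCA, 14.7% GGAATG and 49.6% CAGAC. A match is a description of letters, and no motif is common to all 5.

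The small leucine-rich proteoglycans differed among themselves. Lum encodes lumican, a keratan sulfate proteoglycan that regulates collagen fibril assembly. Its only probe set read 4107 at day 3 and 489 at day 0, a log2 ratio of 3.07, which is higher than that of 99.0% of all genes analysed. Dcn encodes decorin, which also binds collagen fibrils and sequesters TGF-beta. Its main probe set read 6596 at day 3 and 5227 at day 0, a log2 ratio of 0.34 that lies within the spread between probe sets. A dim second probe set of Dcn read 79.3 at day 3 and 24.1 at day 0, where it was under the floor, and gives only a bound of 1.16-fold. Lumican and decorin differed by 2.74 in log2 ratio, beside an SD of 0.62 for a difference between probe sets.

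Biglycan, encoded by Bgn, is the closest relative of decorin and, once released from the matrix, a ligand of Toll-like receptors. Its 3 probe sets read 4596, 4435 and 3986 at day 3, against 2500, 1479 and 2390 at day 0. All 3 were higher at day 3, by 1.84-fold, 2.998-fold and 1.67-fold. The main one is marked as shared between transcripts of the gene, and the 2.998-fold one is not. Their log2 ratios spanned 0.85, so whether Bgn passes 2-fold rests on the probe set chosen. Between Bgn and Dcn the log2 ratios differed by 0.54, less than the SD of 0.62.

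Lum and Dcn are adjacent protein-coding genes in the RefSeq order, followed by Kera and Epyc of the same family, which encode keratocan and epiphycan. Kera read 3.18 at day 3 and 3.04 at day 0, and Epyc 15.2 at day 3 and 26.4 at day 0. Both lie under the floor on both arrays, so within this cluster Lum and Dcn were the genes with a measured signal.

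Among the matricellular glycoproteins, thrombospondin-1 and thrombospondin-2 are trimers that bind CD36, CD47 and integrins and restrain angiogenesis. Thbs2 was represented by 3 probe sets, which read 356, 252 and 98.3 at day 3, against 84.8, 32.4 and 37.3 at day 0. All 3 were higher at day 3, and only the first was above the floor at day 0, with a log2 ratio of 2.07. The other 2 gave bounds of 3.69-fold and 1.44-fold. Thbs1 read 107 and 88.5 on its 2 probe sets at day 3, against 8.49 and 15.4 at day 0. Both day 0 values were under the floor, so the folds of at least 1.57 and at least 1.30 are bounds set by it. A further probe set annotated with Thbs1 and another gene was left out by the rule. Since Thbs1 has only a bound, the larger ratio of Thbs2 does not order them.

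Sparc encodes osteonectin, a collagen-binding glycoprotein. Its 2 bright probe sets read 8135 and 7253 at day 3, against 2364 and 2308 at day 0. They gave 3.44-fold and 3.14-fold, log2 ratios of 1.78 and 1.65 that differ by 0.13. The remaining, dim probe set went the other way, with 51.6 at day 3, under the floor, and 97.1 at day 0, at least 1.42-fold lower. Averaged over the 3, the log2 ratio of Sparc was 0.98, just under 2-fold.

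Postn encodes periostin, an integrin ligand that promotes collagen cross-linking. Its only probe set read 1672 at day 3 and 665 at day 0, a log2 ratio of 1.33. Tnc encodes tenascin-C, a large hexameric glycoprotein of wounds and developing tissue. Its main probe set read 150 at day 3 and 33.3, under the floor, at day 0. The other probe set of Tnc read 3.41 at day 3 and 1.59 at day 0, under the floor on both arrays. Tnc therefore rests on 1 probe set at 2.19 times the floor at day 3.

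Fibronectin, encoded by Fn1, joins collagen, fibrin and integrins. The main probe set of Fn1 read 26914 at day 3 and 24827 at day 0, a log2 ratio of 0.12 that lies near the median of all genes. The other read 516 at day 3 and 225 at day 0, a log2 ratio of 1.20. The gap of 1.08 between them is larger than the SD of 0.62 between probe sets. Which transcript forms these probe sets read was not analysed here, so the days cannot be compared by form.

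**Figure D2:**
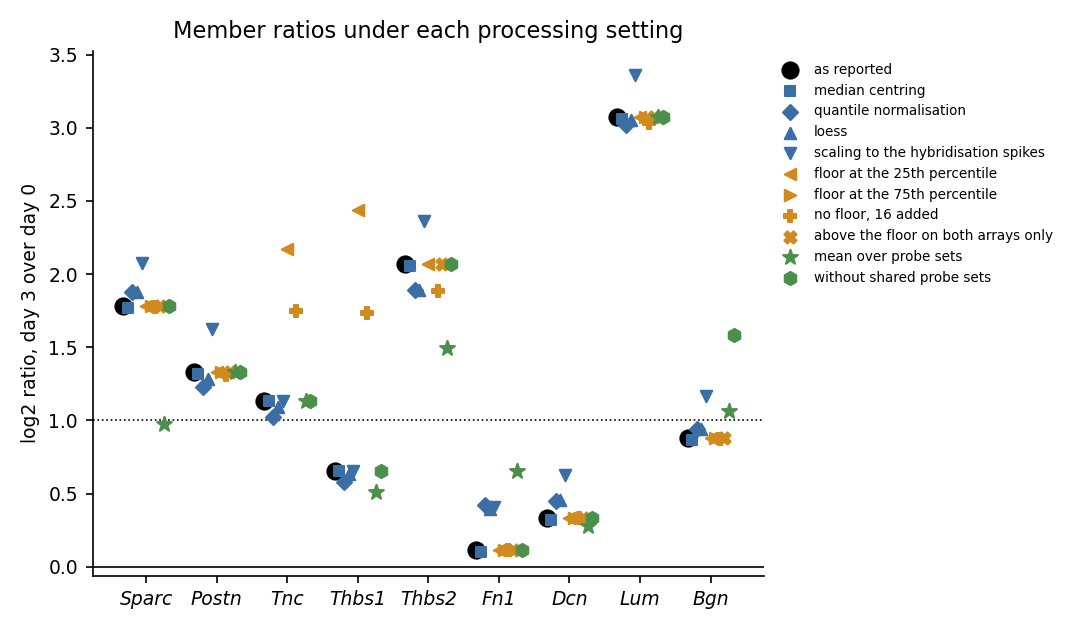
Log2 ratio of day 3 over day 0 (vertical axis) of the 9 measured genes under the processing as reported (black) and under other scalings (blue), floors (orange) and probe set rules (green), with 2-fold as a dotted line. Lum lies between 3.02 and 3.36 in all settings, whereas Thbs1 moves between 0.51 and 2.44 with the floor and the probe set rule.

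Set in order of log2 ratio, the 7 genes above the floor on both arrays were Lum, Thbs2, Sparc, Postn, Bgn, Dcn and Fn1. Lum, at 3.07, exceeded the next, Thbs2, at 2.07, by more than the SD of 0.62 for a difference between probe sets. Lum has 1 probe set, and a second probe set of Thbs2 gave only a bound, at least 1.88, so their order is not settled. The other neighbours in this order differed by 0.22 (Dcn and Fn1) to 0.54 (Bgn and Dcn), less than that SD, so their order is not resolved. Among the ratios of all genes analysed, Thbs2 stood above 97.0%, Sparc above 95.7% and Postn above 91.9%. Bgn stood above 84.5%, Dcn above 65.3% and Fn1 above 52.5%.

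The measured genes above the floor on both arrays kept a log2 ratio above 0 in every setting run that gave them a value. Tnc and Thbs1 also stayed above 0, but they could not fall below it where they passed the floor at day 3 only. Scaling to the hybridisation spikes gave all genes a median of 0.36, against 0.08 as deposited. With that scaling the log2 ratio was 0.41 for Fn1 and 0.63 for Dcn, and that of Bgn, 1.17, passed 2-fold.

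The 3′ to 5′ balance of several control transcripts differed between the arrays. Poly-A spikes are bacterial RNAs added before labelling, and their 3′ to 5′ signal ratio was 1.32 to 2.90 times as large at day 3 as at day 0 in 8 pairs of probe sets, leaving out a pair under the floor. The median log2 ratio was −1.20 for their 5′ probe sets and −0.12 for their 3′ probe sets. Hybridisation spikes, added after labelling, had 0.879 to 1.01 times the day 0 ratio. Of the mouse transcripts with both probe sets above the floor, beta-actin had 2.09 and Gapdh 1.91 times the day 0 ratio, the direction of the poly-A spikes. 18S ribosomal RNA had 0.988 times and pyruvate carboxylase 0.594 times. The 5′ probe set of pyruvate carboxylase read as low as 98.5, near the floor, against at least 1497 for beta-actin and 7103 for Gapdh. The mouse transcripts thus did not all move one way, and pyruvate carboxylase is a weak reading. Where the probe sets of the genes described here lie along their transcripts was not analysed, and the part of this difference in their ratios was not tested.

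Related genes were examined in lists, read against 12.9% of all genes at least 2-fold higher and 5.62% lower. For genes above the floor on both arrays these shares were 11.7% and 5.76%. A gene above the floor on 1 array only has its direction set by that array. Of 29 other matricellular proteins 17 passed the floor, 3 of them at day 3 only and 2 at day 0 only, with 7 at least 2-fold higher, 0 lower and a median log2 ratio of 0.50. These values depend on the floor, since a 25th percentile floor gave 10 higher and 5 lower of 25 (median 0.18), and no floor with 16 added gave 10 higher and 4 lower of 29 (median 0.24). Fstl1, a relative of osteonectin, was 11.8-fold higher, with 1764 at day 3 and 149 at day 0. Smoc2, another relative, was 9.90-fold higher, with 783 at day 3 and 79.1 at day 0. The other probe set of Smoc2 was under the floor at day 0, with a log2 ratio of at least 1.24. Spon2, an F-spondin family protein, was 4.48-fold higher. The CCN family gene Ccn1 was 2.16-fold higher. Its 2 dim probe sets were under the floor at day 3, with bounds of −0.14 and −0.13 or lower in log2 ratio. Ccn1, Sparcl1, at least 4.23-fold higher, and the CCN family gene Ccn2 (3.13-fold) were chosen after their values were seen. So were the CCN family gene Ccn5, 1.80-fold lower with 90.6 at day 3 and 163 at day 0, the matrix glycoprotein gene Ecm1, 1.99-fold lower, and Angptl4, an inhibitor of lipoprotein lipase, 1.68-fold lower. Of the other CCN genes, Ccn4 was at least 1.95-fold and Ccn6 at least 1.11-fold higher, and Ccn3 passed the floor at day 0 only, with 68.6.

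Of 12 other small leucine-rich proteoglycans with a probe set, 5 passed the floor, 0 of them at least 2-fold higher or lower, with a median log2 ratio of −0.61. Of these, Omd and Ogn passed at day 0 only, so they could only be lower and their ratios are bounds, and the 3 above the floor on both arrays had a median of −0.38. A 25th percentile floor gave 0 higher and 3 lower of 10 (median −0.52), no floor with 16 added 1 higher and 3 lower of 12 (median −0.40), and a 75th percentile floor left 1 gene, at 0.89. The highest ratio of the 5 was that of Prelp, a collagen-binding member chosen after its value was seen, with 786 at day 3 and 407 at day 0 (1.93-fold).

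Of 24 fibulins, fibrillins, elastic fibre and plasma adhesion proteins 20 passed the floor, with 6 at least 2-fold higher, 1 lower and a median of 0.34. Of the 20, 4 passed at day 3 only and 1 at day 0 only. Among the 15 above the floor on both arrays 6 were higher and 1 lower (median 0.55). Nid1, the basement membrane linker nidogen-1, was 15.5-fold higher, Eln, elastin, 6.16-fold and Emilin1, an elastic fibre glycoprotein, 3.05-fold. Second probe sets of these 3 genes were under the floor at day 0 and give only bounds. Their log2 ratios were at least 2.86 for Nid1, at least 0.26 for Eln and at least 0.50 for Emilin1. Ltbp4, a latent TGF-beta binding protein, was 2.61-fold lower. Of 23 larger and cell surface proteoglycans 17 passed, with 4 higher and 0 lower (median 0.21). Among the 14 above the floor on both arrays 3 were higher and 0 lower (median 0.17). These 3 were the glypican Gpc1 (2.96-fold), the link protein gene Hapln4 (2.51-fold) and the syndecan Sdc1 (2.13-fold). The dimmest probe set of Sdc1 gave a log2 ratio of −0.27. Of 25 genes that build glycosaminoglycan chains 22 passed, with 4 higher and 0 lower (median 0.36). Among the 21 above the floor on both arrays 4 were higher and 0 lower (median 0.34). Chsy1 and Csgalnact2, which extend and start chondroitin sulfate, were 2.79-fold and 2.62-fold higher, and Dse, the epimerase that forms the dermatan sulfate carried by decorin and biglycan, 2.70-fold.

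Of 24 receptors of these proteins 20 passed the floor, with 7 at least 2-fold higher and 0 lower (median 0.48). Of the 20, 3 passed at day 3 only and 1 at day 0 only. Among the 16 above the floor on both arrays 5 were higher and 0 lower (median 0.38). Itga5, the fibronectin receptor subunit, was 4.25-fold higher. Another probe set of Itga5 was under the floor at day 0, with a log2 ratio of at least 0.57. Cd44, a receptor of hyaluronan and osteopontin, was 3.59-fold higher and Itga4 at least 3.42-fold. The thrombospondin receptor genes Cd47 and Cd36, chosen after their values were seen, were 1.01-fold and 1.82-fold lower. Other probe sets of Cd47 gave log2 ratios of −0.41 and −0.19. Those of Cd36 gave −0.09, with 657 at day 3 and 698 at day 0, and −0.23, so the 1.82-fold rests on 1 of its 3 probe sets. Of 16 TGF-beta ligands, receptors and targets 15 passed, with 5 higher and 0 lower (median 0.41). Among the 13 above the floor on both arrays 4 were higher and 0 lower (median 0.41). The median of the 15 was 0.13 with the mean over probe sets, 0.17 after quantile normalisation and 0.70 with scaling to the hybridisation spikes. The feedback inhibitors Skil and Pmepa1 were 3.47-fold and 3.37-fold higher and the receptor gene Tgfbr2 3.23-fold, with second probe sets of Pmepa1 and Tgfbr2 at 1.65-fold and 1.47-fold.

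**Figure D3:**
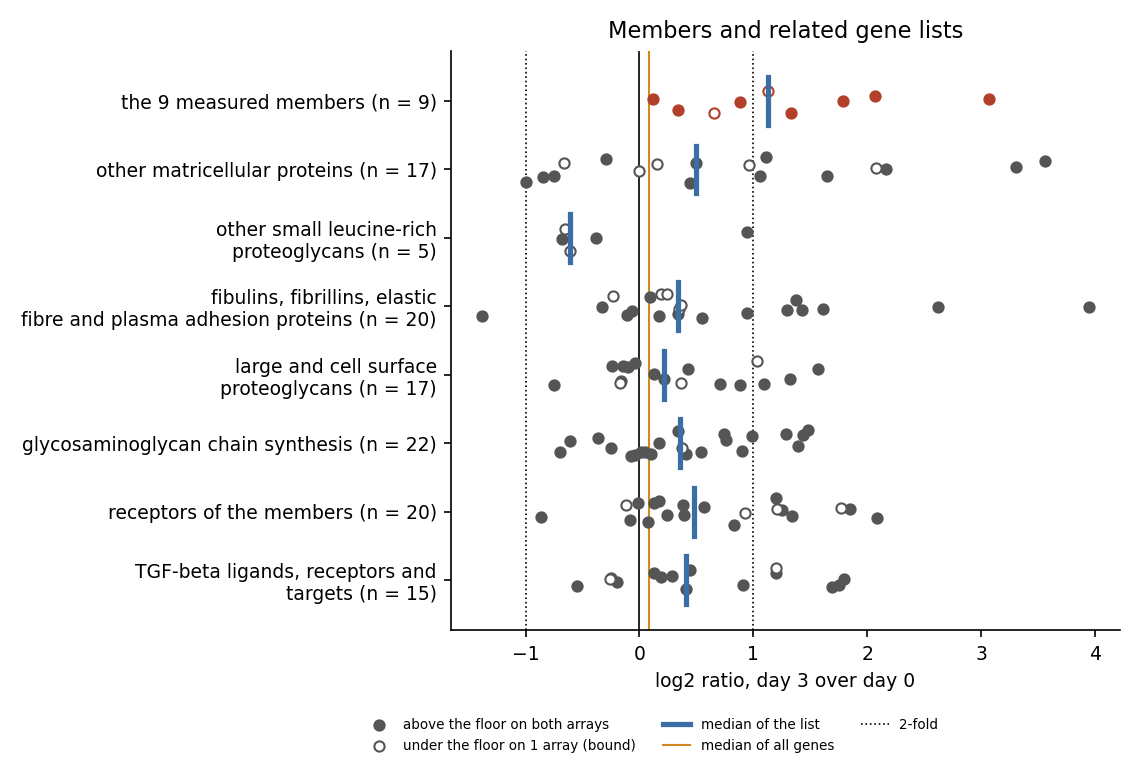
Log2 ratio of day 3 over day 0 (horizontal axis) for the 9 measured genes (red) and for each related list (grey), with open circles for genes under the floor on 1 array, blue bars for list medians and dotted lines at 2-fold. The other small leucine-rich proteoglycans have their median at −0.61, while the other lists lie between 0.21 and 0.50.

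Whole liver was measured, so more cells of a type and more RNA per cell cannot be told apart. Markers above the floor on both arrays were at least 2-fold higher at day 3 for 5 of 8 of stellate cells, 3 of 4 of portal fibroblasts and 4 of 6 of Kupffer cells. The same held for 1 of 2 each of cholangiocytes, infiltrating monocytes and platelets, 1 of 1 of neutrophils and 1 of 6 of endothelial cells. It held for 0 of 4 of hepatocytes and 0 of 2 of mesothelial cells. Of all genes above the floor on both arrays, 11.7% were at least 2-fold higher. The counts that follow add markers above the floor on 1 array, whose direction that array sets. Beside them stand 12.9% of all genes at least 2-fold higher and 5.62% lower. All 9 stellate cell markers passed the floor, 5 were at least 2-fold higher and 0 lower, and their summed signal was 16546 at day 3 and 7567 at day 0. Their median log2 ratio was 1.45, or 0.59 where the floor was the 75th percentile and 1.74 with scaling to the hybridisation spikes. The stellate cell count was 3 of 8 without shared probe sets (median 0.70) and 4 of 9 with the mean over probe sets (median 0.97). Of the defining ones, Reln was 2.82-fold higher, Des at least 1.45-fold higher, and Lrat 1.22-fold higher, or −0.03 in log2 ratio on its other probe set. Of 7 portal fibroblast markers 5 passed, with 4 higher and 0 lower (1665 at day 3 and 530 at day 0), among them Thy1 at least 2.74-fold and Fbln2 2.45-fold, with Entpd2 at 1.59-fold. Of 5 cholangiocyte markers 5 passed, 3 of them at day 3 only, with 3 higher and 0 lower (1112 at day 3 and 276 at day 0), namely Krt19 at 3.31-fold, Krt7 at least 2.58-fold and Epcam at least 6.57-fold, with another probe set of Epcam at −0.06. All 6 Kupffer cell markers passed, with 4 higher and 0 lower (15879 at day 3 and 5267 at day 0), and the defining Cd5l, Vsig4 and Clec4f at 3.13-fold, 1.90-fold and 1.87-fold higher. The Kupffer cell count depends on the setting. It was 2 of 6 after quantile normalisation, 6 of 6 with scaling to the hybridisation spikes and 2 of 5 with a 75th percentile floor.

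Of 6 markers of infiltrating monocytes and macrophages 4 passed, with 2 higher and 0 lower (2792 at day 3 and 753 at day 0). Of its defining markers, Ccr2 read 88.7 at day 3 and 94.7 at day 0 on one probe set and 119 at day 3 and 10.9, under the floor, at day 0 on another (at least 1.74-fold higher), Itgam lay under the floor on both arrays and Ly6c2 had no probe set named by 1 symbol. Of 6 neutrophil markers 3 passed, with 2 higher and 0 lower (1193 at day 3 and 261 at day 0), where S100a8 was at least 8.57-fold and S100a9 4.98-fold higher and Ngp at least 1.32-fold lower. Platelets carry thrombospondin-1 protein, and of 4 platelet markers 3 passed, with 1 higher and 0 lower (839 at day 3 and 424 at day 0), Pf4 at 3.26-fold, Itga2b at 274 on day 3 and 273 on day 0, and Ppbp under the floor on both arrays. Of 5 mesothelial markers 4 passed, with 0 at 2-fold (434 at day 3 and 292 at day 0), Msln 1.55-fold lower, Upk3b at least 1.18-fold higher and Wt1 under the floor on both arrays. All 6 endothelial markers passed, with 1 higher and 0 lower (5091 at day 3 and 6786 at day 0), Stab2 1.30-fold lower, Pecam1 1.95-fold higher and Kdr 1.63-fold lower. Their median log2 ratio was 0.28, and −0.70 for the 3 above a 75th percentile floor. Of 4 hepatocyte markers 4 passed, with 0 at 2-fold (168883 at day 3 and 222296 at day 0), and Alb, Ttr and Apoa1 were 1.30-fold, 1.44-fold and 1.28-fold lower. The median log2 ratio of the hepatocyte markers, −0.36, was 0.05 after quantile normalisation. No marker signal was 0 on either array. The part of any of these cell types in the ratios of Lum, Thbs2, Sparc, Postn and Tnc was not tested.

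**Figure D4:**
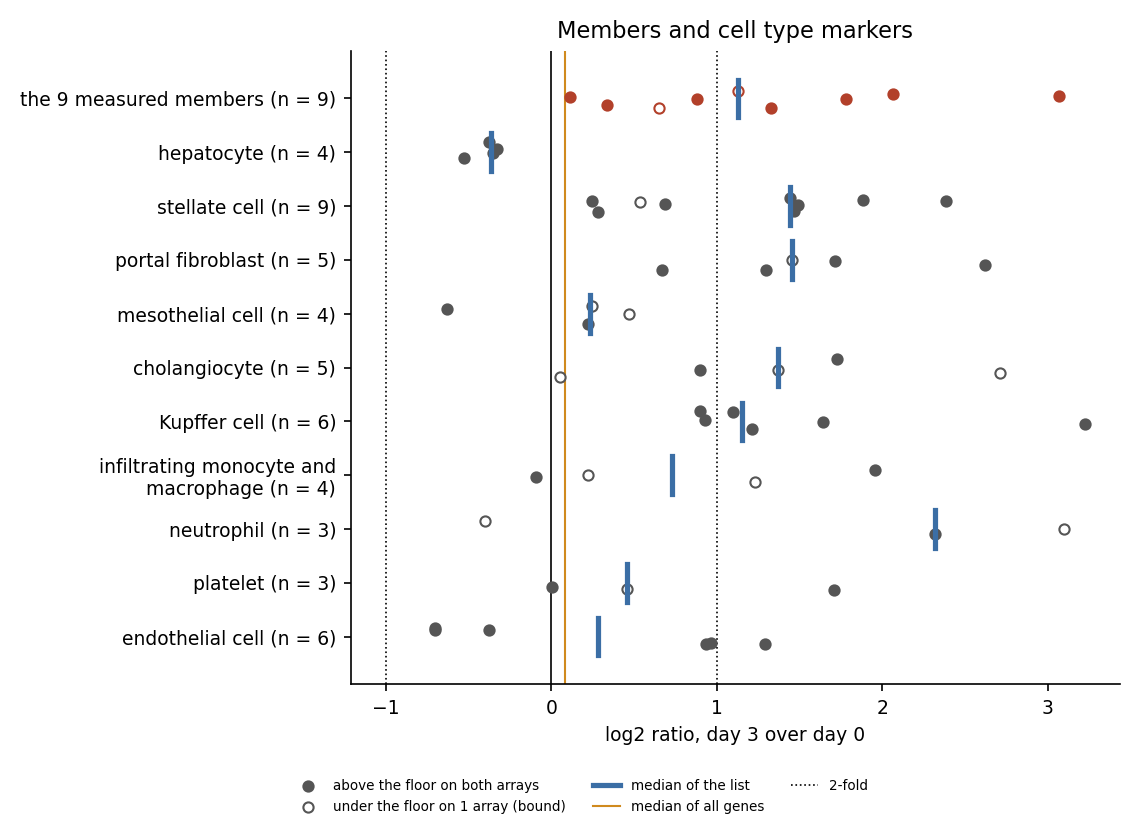
Log2 ratio of day 3 over day 0 (horizontal axis) for the 9 measured genes (red) and for markers of each cell type (grey), drawn as in the plot of related lists. The median of the 9 measured genes lies at 1.13, and those of the cell types run through neutrophils (2.32, 3 genes), stellate cells and portal fibroblasts (both 1.45), cholangiocytes (1.37), Kupffer cells (1.15), monocytes and macrophages (0.73), platelets (0.46), endothelial cells (0.28) and mesothelial cells (0.23) to hepatocytes (−0.36).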

How the data were processed

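Total RNA of whole liver was hybridised to 1 Affymetrix mouse expression array per day, per the labels. The deposited values are intensity values of probe sets on a linear scale, made with GCOS and MAS5 per the submitters' processing notes. Versions and scaling are not stated there. Both arrays have a mean of 500.0 when the top and bottom 2% of values are trimmed. MAS5 subtracts mismatch signal, so ratios of low signals are noisy. The number of arrays limits the precision.

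From these, probe sets were named by the supplied array annotation (932 with several symbols and 9160 with no entry were left out). Entrez IDs of 34741 matched RefSeq GRCm38.p6, which changed 0 symbols. Signals were floored at 68.3 and log2 transformed, and a 2-fold ratio was the threshold. The genes and lists were chosen with earlier results of these data known. Of each list the text names up to 3 genes highest and lowest past 2-fold, and of each cell type list the first 3 markers, besides those said to be chosen later. Alternatives were 4 scalings, 4 treatments of low signals, 2 probe set rules and 2 thresholds. The steps were tested on simulated data. Python 3.11.15, pandas 2.3.3 and statsmodels 0.14.6 were used.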

Additional observations from a re-analysis of the deposited data

How the results depend on the processing

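Of the 9 measured genes, 5 were at least 2-fold higher as reported, 3 of the 6 above a floor at the 75th percentile, and 2 at a 4-fold threshold. Of the 7 above the floor on both arrays 4 were at least 2-fold higher, and at a 1.5-fold threshold 7 of 9 were higher. The other alternatives gave 5 or 6 of 9 at 2-fold. In all settings run 0 genes were lower past the threshold, which Tnc and Thbs1 could not be where they passed at day 3 only. Among all genes, 12.9% were at least 2-fold higher as reported, 7.47% with the 75th percentile floor and 19.6% with scaling to the hybridisation spikes. The share lower ran from 3.10% with that scaling to 11.2% with a 25th percentile floor. Shares of all genes at the 1.5-fold and 4-fold thresholds were not counted, so the counts at these thresholds have no share to be read against. The median log2 ratio, 1.13 as reported, was 1.78 for a 25th percentile floor and 1.73 with no floor and 16 added, since the bounds of Tnc and Thbs1 are set by the floor. In the other settings it was 1.03 to 1.33. By gene, the mean over probe sets gave log2 ratios of 0.98 for Sparc, 1.49 for Thbs2 and 0.66 for Fn1, and leaving out shared probe sets gave 1.58 for Bgn. Tnc was 2.17 and Thbs1 2.44 with the lower floor. Under these settings Sparc, Thbs1 and Bgn change their side of 2-fold. No paired analysis was possible because each day has 1 sample. Signals near the floor limit Tnc, Thbs1 and the dim probe sets of Thbs2 and Dcn.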
